A study of Mus musculus with 10 samples.

Results

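The genes described here were 10 heat shock and chaperone genes, Hspa1a, Hspa1b, Hspa8, Hsp90aa1, Hsp90ab1, Hsph1, Hspb1, Hspb8, Dnajb1 and Hspd1, out of 24059 gene symbols counted in mouse lung. They were chosen by symbol, as a group said to be higher with fish oil in these same counts, so every difference between the diets is given for them as a description without a test. Female C57Bl/6 mice were 6 weeks old when they were placed on 1 of 2 high-fat diets, both described as holding 19% total fat and 0.2% cholesterol. The study's supplement lists less cholesterol for the FO diet than for the CO diet. The FO diet held menhaden fish oil with some corn oil, the CO diet held mainly saturated fat of coconut oil with olive and corn oil, and both were fed for 8 weeks. Every mouse first had its airway reactivity tested, then lungs were flushed with PBS at 14 weeks of age, RNA of the whole lung was sequenced, and each of the 5 FO and 5 CO mice was 1 sample. Both groups ate a high-fat diet, and mice on normal chow were not analysed here, so a difference cannot be assigned to 1 of the oils. The study asked how the fish oil diet changes the lung and its airway reactivity.

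Heat shock proteins are chaperones: they bind unfolded proteins, help them fold or hand them on for degradation. HSP70 proteins work with J-domain proteins, which deliver clients, and with exchange factors such as HSP110, which release them, while HSP90 completes the folding of kinases and steroid receptors. Small heat shock proteins hold unfolded proteins without using ATP, and the transcription factor HSF1 drives the inducible members of all these families through heat shock elements, arrays of the unit GAA and its complement TTC. Hspd1 differs from the other members, which code for proteins of the cytosol and nucleus: it codes for HSP60, the chaperonin of the mitochondrial matrix. The name cytosolic heat shock genes therefore does not cover Hspd1.

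The libraries were shallow. Totals ranged from 229766 counts in CO1 to 1124963 in FO2, and the 45S ribosomal RNA precursor Rn45s took from 21.8% of them in CO4 to 87.0% in FO3. From 45177 to 473254 counts were left on all other genes, and the members held 204 to 2959 counts per mouse. Levels are given as CPM, the count of a gene scaled to a common library size, with library sizes adjusted by TMM, and 3 counts, taken as the floor of detection, were worth 2.29 CPM in FO2 and 19.9 CPM in CO1. All 11 lung epithelial markers listed had counts, with a summed share of 0.860 to 1.52% of the counts outside Rn45s. In bulk lung, fewer cells of a type and less RNA per cell cannot be told apart.

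Paired HSF1 units stood near the starts of most members whose windows were given. RefSeq windows on GRCm38.p6, from 250 bases before to 50 bases after an annotated start, were given for Hspa1a, Hspa1b, Hsph1, Hspb1, Hspb8, Dnajb1 and Hspd1, and 7 of the 10 members were matched this way, with 10 windows in all since Hsph1, Dnajb1 and Hspd1 have more than 1 annotated start. A member was counted when any of its windows held a match. The paired units searched were GAANNTTC and TTCNNGAA, each of which is its own reverse complement, so a match lies on both strands. One or the other was found in 6 of 7 members, all but Dnajb1, against 17.0% of 27025 genes. GAANNTTC was found in 6 of 7 members against 9.04% of genes, and TTCNNGAA in 2 of 7 against 9.60%. The longer array of 3 units, GAANNTTC continued by NNGAA or its reverse complement, TTCNNGAA continued by NNTTC, contains both pairs and was found in Hsph1 and Hspd1, 2 of 7 members, against 0.662% of genes. TATAAA, searched on both strands, was in none of the 10 windows and in 15.7% of genes. The 250 bases before the start are shown for 5 members. Hsph1 and Hspd1 are shown as the members with 3-unit arrays, although that of Hsph1 lies after the start and outside the bases printed. Hspb1 and Hspa1a are shown as members with separate pairs, and Hspb8 because its fold change had the narrowest range with 1 mouse left out. Each runs 5′ to 3′ toward the start, and capitals mark matches to GAANNTTC or TTCNNGAA.
Hsph1, chr5:149636337-149636586, minus strand: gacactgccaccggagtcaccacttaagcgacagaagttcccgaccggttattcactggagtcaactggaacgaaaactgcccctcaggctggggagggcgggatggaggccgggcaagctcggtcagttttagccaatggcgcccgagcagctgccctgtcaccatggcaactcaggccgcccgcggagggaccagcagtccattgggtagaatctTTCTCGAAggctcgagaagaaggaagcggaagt
Hspd1, chr1:55087933-55088182, minus strand: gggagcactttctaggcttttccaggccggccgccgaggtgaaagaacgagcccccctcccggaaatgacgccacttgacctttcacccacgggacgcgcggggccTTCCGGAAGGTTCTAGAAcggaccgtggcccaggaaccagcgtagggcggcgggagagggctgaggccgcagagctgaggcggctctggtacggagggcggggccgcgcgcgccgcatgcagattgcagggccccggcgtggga
Hspb1, chr5:135887669-135887918, plus strand: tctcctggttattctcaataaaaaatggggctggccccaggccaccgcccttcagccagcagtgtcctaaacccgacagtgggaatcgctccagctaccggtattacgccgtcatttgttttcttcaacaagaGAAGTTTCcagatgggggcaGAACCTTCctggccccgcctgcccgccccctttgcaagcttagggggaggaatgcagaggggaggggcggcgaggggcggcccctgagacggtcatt
Hspa1a, chr17:34972157-34972406, minus strand: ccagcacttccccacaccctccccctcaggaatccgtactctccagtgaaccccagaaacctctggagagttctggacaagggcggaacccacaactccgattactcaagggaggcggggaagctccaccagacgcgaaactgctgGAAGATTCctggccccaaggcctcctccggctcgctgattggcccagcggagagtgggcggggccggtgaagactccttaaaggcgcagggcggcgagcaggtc
Hspb8, chr5:116422865-116423114, minus strand: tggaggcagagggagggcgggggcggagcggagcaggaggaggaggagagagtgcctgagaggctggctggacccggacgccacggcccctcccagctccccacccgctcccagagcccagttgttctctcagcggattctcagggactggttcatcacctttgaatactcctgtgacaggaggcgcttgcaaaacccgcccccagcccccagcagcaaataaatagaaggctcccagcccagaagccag
In Hspd1 both pairs merged into the run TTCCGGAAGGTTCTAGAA, 18 bases long, from 144 to 127 bases before the start at base 55087932. That is the downstream one of its annotated starts, so the run lies inside the annotated gene, and the window of the other start, at base 55088243, held no match. The window shown also shares 285 bases with the window of Hspe1, the gene of the partner co-chaperonin HSP10, which is read from the opposite strand. Hsph1 held TTCTCGAA before its start, the match in capitals. Its 3-unit run TTCTGGAAAGTTC lay from 37 to 49 bases after the start and is not in the sequence printed. Hspb1 held a pair of separate matches. The single match of Hspb8, GAAGTTTC, lay after the start, at bases 3 to 10, and is therefore not in the sequence printed. The windows of Hspa1a and Hspa1b, neighbouring genes on chromosome 17, were identical at 296 of 300 bases. A match describes the letters only, and binding was not measured.

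Levels of the members spanned more than their differences between diets did. Per kb of exon, Hsp90ab1, the constitutive HSP90, was highest with 440.2 ± 116.4 CPM per kb (SD, n = 10). Next came Hspb8, a small heat shock protein that works with Bag3 and is abundant in muscle, with 49.8 ± 17.0 CPM per kb. Hsp90aa1, the inducible HSP90, had 35.3 ± 11.1, and Hspa8, the constitutive HSP70 also called HSC70, had 24.2 ± 9.01 CPM per kb. Hspd1 followed with 19.8 ± 6.02 and Hspb1, the small heat shock protein HSP25, with 13.4 ± 5.66 CPM per kb. Hsph1, the HSP110 exchange factor, had 4.68 ± 3.40, and Dnajb1, the J-domain protein HSP40, had 2.18 ± 1.93 CPM per kb. The inducible HSP70 genes were lowest, Hspa1a with 0.611 ± 0.798 and Hspa1b with 0.204 ± 0.343 CPM per kb. Hsp90ab1 alone gave 64.5 to 84.5% of the members' counts in a mouse.

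**Figure D1:**
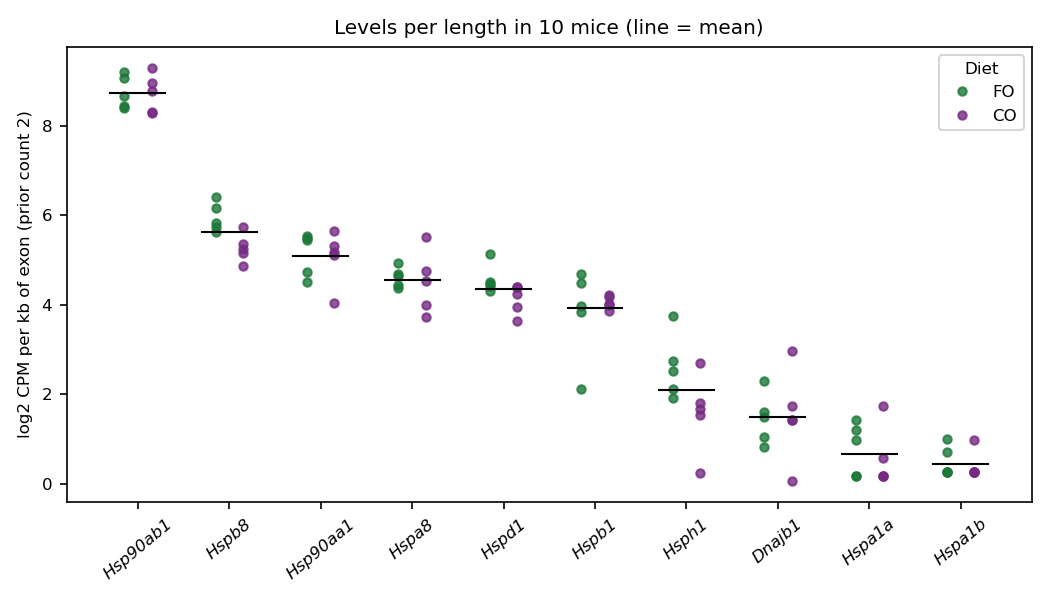
Level of each member in 10 mice as log2 CPM per kb of exon with a prior count of 2, ordered by mean (line), FO in green and CO in purple. Hsp90ab1 stands above the rest, and Hspa1a and Hspa1b lie at the bottom, where points without a count sit at the value set by the prior count.

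The order was the same in both diets. Of 9 neighbouring pairs in it, 4 differed in an exact two-sided sign-flip permutation test over the 10 mice with Benjamini-Hochberg adjustment over the 9 pairs. Hsp90ab1 was above Hspb8 by 3.12 on the log2 scale (adjusted exact p = 0.00879), and Hsp90aa1 was above Hspa8 by 0.54 (adjusted exact p = 0.0176). Hspb1 was above Hsph1 by 1.83 (adjusted exact p = 0.00879) and Dnajb1 above Hspa1a by 0.81 (adjusted exact p = 0.0264), although most Hspa1a counts lay at or under the floor. The other neighbours did not pass, among them Hspb8 above Hsp90aa1 by 0.52 (adjusted exact p = 0.0527) and Hspa8 above Hspd1 by 0.21 (adjusted exact p = 0.225). These levels count reads by symbol, and processed pseudogenes and near-identical copies can take or lend reads, as given per gene below.

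The constitutive HSP70 and both HSP90 genes had close mean levels in FO and CO, and their groups overlapped broadly. Hspa8 measured 86.3, 107, 90.3, 105 and 128 CPM in FO mice 1 to 5 and 113, 95.9, 195, 53.5 and 65.6 CPM in CO mice 1 to 5. The CO group held both the highest mouse, CO3, and the lowest, CO4. The log2 fold change, FO minus CO, was 0.01 ± 0.31 (SE, edgeR). Hsp90aa1 measured 101, 174, 168, 86.5 and 180.1 CPM in the FO mice and 153, 138, 193, 61.9 and 133 CPM in the CO mice. CO3 and CO4 were again the extremes, and the log2 fold change was 0.07 ± 0.30. Hsp90ab1 measured 1214, 1762, 1045, 1013 and 1601 CPM in the FO mice and 944, 932, 1487, 1317 and 1886 CPM in the CO mice. CO5 was highest and CO2 lowest, with a log2 fold change of 0.01 ± 0.26. Each count of Hsp90aa1 was matched by 6.23 to 12.0 counts of Hsp90ab1 in FO and by 6.17 to 21.3 in CO, where CO4 was far above the CO median of 7.72.

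The inducible HSP70 genes were close to undetected. Hspa1a had 3, 6, 0, 2 and 0 counts in the FO mice and 0, 0, 3, 1 and 0 counts in the CO mice. Only FO2 passed 3 counts, and 2 FO and 3 CO mice had none. The fitted log2 fold change, 0.75 ± 0.96 in the fit of all genes with any count, depends on the prior count and moved to 2.23 without CO3 and to -0.045 without FO2 and CO5. Hspa1b had at most 3 counts in any mouse, so its fitted log2 fold change, 1.03 ± 1.19 in the fit of all genes with any count, is not read. Both genes together had 20 counts, and 58.8% of the 50-base words of Hspa1a transcripts also occur in Hspa1b, so the split between them is uncertain. Hspa1a lies at chr17:34969190-34972156 and Hspa1b at chr17:34956436-34959238, both on the minus strand of GRCm38. A difference in either gene was not detectable at this depth.

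The partners of HSP70 did not move alike. Hsph1, at chr5:149614287-149636376 on the minus strand, measured 24.2, 38.2, 45.2, 28.4 and 95 CPM in the FO mice and 19.9, 5.33, 43.8, 17.8 and 22.3 CPM in the CO mice. All 5 FO mice lay above the CO median, but CO3 reached 43.8 CPM and the groups overlapped. FO5 was the highest mouse, with 29 counts or 0.0318% of the counts outside Rn45s (95% Clopper-Pearson interval 0.0213 to 0.0456%), and CO2 had 1 count. Such intervals and the floor cover counting error only. The mean was 46.2 ± 28.5 CPM in FO and 21.8 ± 13.9 CPM in CO (SD, n = 5 each). The log2 fold change was 0.87 ± 0.43, the highest with all mice among members with a mouse over the floor. It ranged from 0.47 without FO5 to 1.24 without CO3. Dnajb1 averaged 6.03 ± 3.93 CPM in FO and 7.97 ± 8.25 CPM in CO, where CO3 alone had 21.9 CPM. Its log2 fold change was -0.52 ± 0.63 with all mice and 0.18 without CO3.

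The small heat shock genes also differed from each other. Hspb8, at chr5:116408491-116422864 on the minus strand, measured 108, 102, 161, 93.9 and 138 CPM in the FO mice and 66.5, 101, 76.7, 70.3 and 53.8 CPM in the CO mice. All FO mice were above the CO median, and a single CO mouse, CO2, was higher than the lowest FO mouse. Means were 120.5 ± 28.2 and 73.7 ± 17.5 CPM, and the log2 fold change was 0.70 ± 0.25. It stayed between 0.58 and 0.79 when any 1 mouse was left out. The highest mouse, FO3, rested on 25 counts or 0.0538% of the counts outside Rn45s (95% Clopper-Pearson interval 0.0348 to 0.0794%), against 0.0160% (0.0115 to 0.0217%) in CO5, the lowest. Hspb1 had 1, 15, 2, 19 and 6 counts in the FO mice and 2, 3, 7, 11 and 10 counts in the CO mice. FO1 and FO4 were its extremes in CPM and enclosed all CO mice, and the log2 fold change was -0.02 ± 0.49. None of the 50-base words of Hspb8 or Hsph1 transcripts occurred in another annotated gene, whereas 48.8% of those of Hspb1 occurred in the pseudogene Hsp25-ps1.

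**Figure D2:**
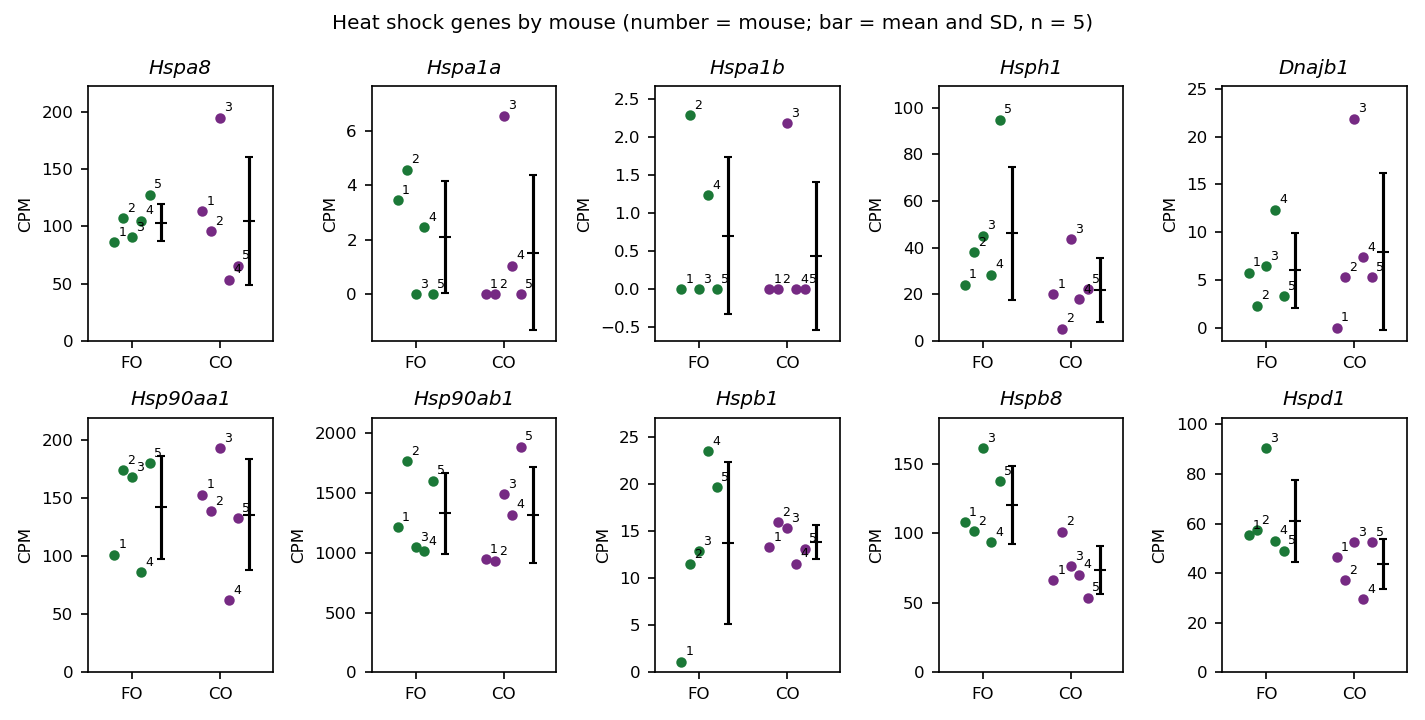
CPM of the 10 members in each FO mouse (green) and CO mouse (purple), numbered by mouse, with the mean and SD (n = 5 per diet). Hspb8, Hsph1 and Hspd1 have all 5 FO mice above the CO median, and in every panel the groups overlap. The share of all genes with all 5 FO mice above the CO median was not counted, so nothing is read from it.

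The mitochondrial chaperonin lay between these patterns. Hspd1, at chr1:55077835-55088243 on the minus strand, measured 55.2, 57.3, 90.3, 53.1 and 49.1 CPM in the FO mice and 46.5, 37.3, 52.6, 29.4 and 52.5 CPM in the CO mice. All FO mice were above the CO median, only FO5 was below the highest CO mice, and FO3, with 14 counts, stood apart from the other FO mice. The log2 fold change was 0.43 ± 0.27, and 0.28 to 0.54 with 1 mouse left out. Its partner Hspe1 averaged 24.8 ± 13.7 CPM in FO and 20.3 ± 11.4 CPM in CO, with a log2 fold change of 0.17 ± 0.44 (edgeR, all genes with any count, adjusted p = 0.995). Part of each gene cannot be assigned safely: 42.1% of the 50-base words of Hspd1 occur in another annotated gene, 38.0% in the pseudogene Hspd1-ps3, and 112 exon bases of Hspd1 overlap Hspe1 on the opposite strand. The share of words found in any other gene was 47.5% for Hsp90aa1 and 39.4% for Hspa8, with processed pseudogenes among those genes, and 3.4% for Hsp90ab1.

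**Figure D3:**
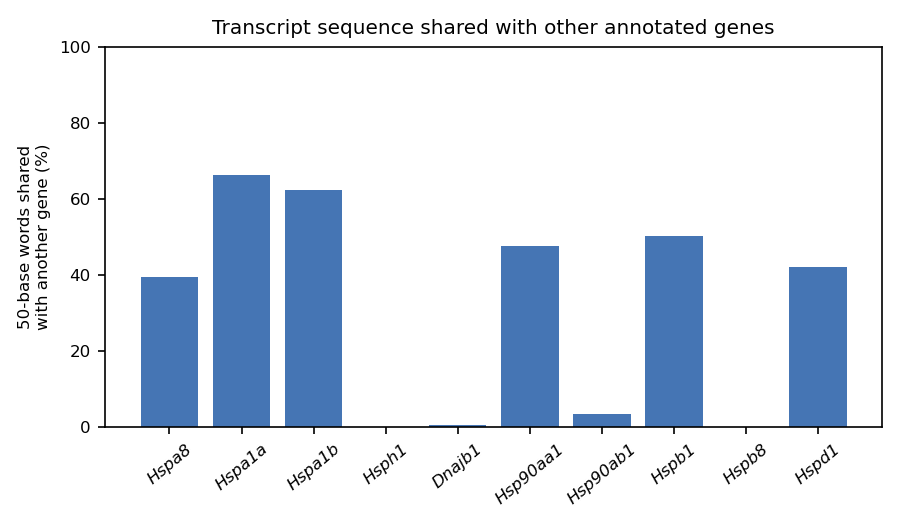
Percent of the 50-base words in the annotated transcripts of each member that also occur in another annotated gene (GENCODE M21). Hsph1 and Hspb8 share none, and Hspa1a and Hspa1b share most.

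Across the 10 genes, 6 passed the filter on low counts, 3 more had a mouse over the floor, and Hspa1b had none. The log2 fold change was positive for 7 of these 9 members, against 50.6% of the 2438 genes tested and 54% of the 14161 genes with any count, and ranged from -0.52 to 0.87 with a median of 0.07. The median of all genes tested was 0.00. Single mice moved these summaries: the median was 0.42 with 9 members positive without CO3, 0.34 with 8 positive without FO1, and -0.043 with 4 positive without FO5. No member had groups without overlap, against 0.41% of all genes tested. These counts come from the contrast by which the genes were chosen, so nothing is read from them. The members' summed share of the counts outside Rn45s was 0.487 to 0.740% in FO and 0.449 to 0.702% in CO. These ranges overlapped almost fully, and Hsph1, Hspb8 and Hspd1 were the members with every FO mouse above the CO median. The share of all genes with that trait was not counted, so nothing is read from it either.

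**Figure D4:**
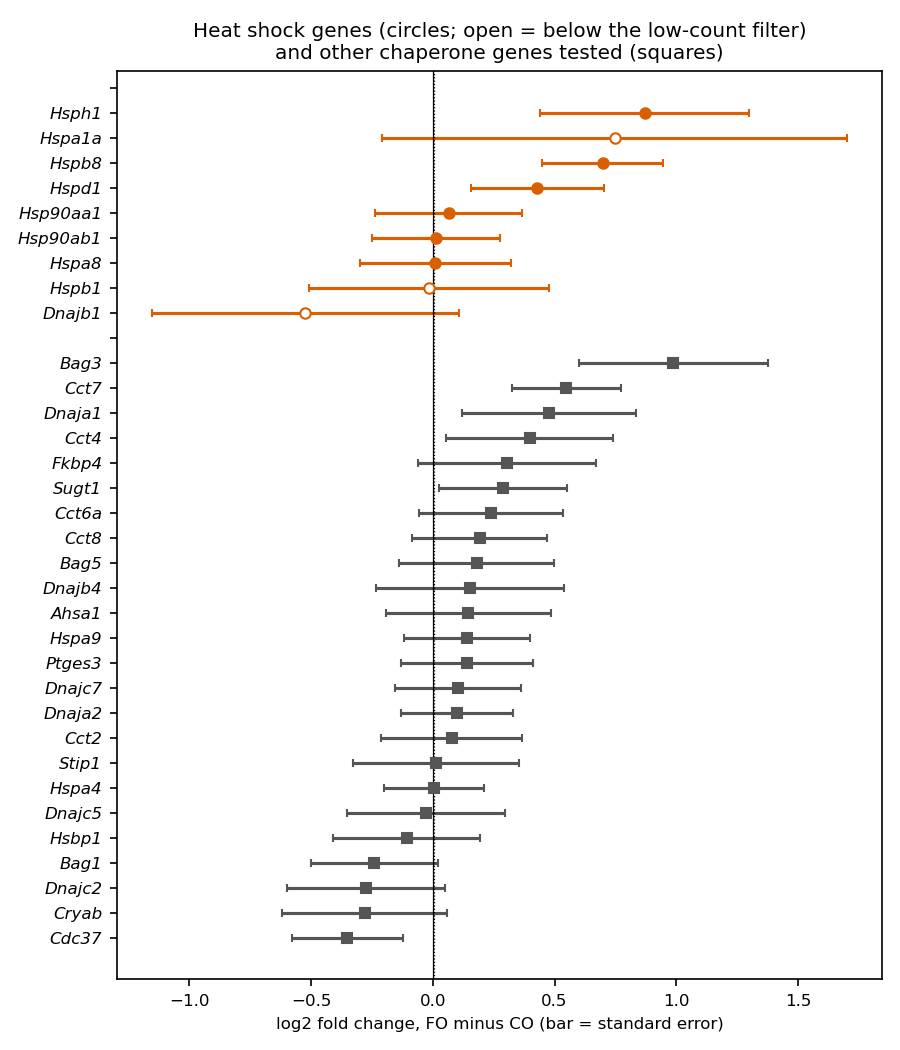
Log2 fold change, FO minus CO, with its standard error (bars) for 9 members (orange circles, open where the gene failed the low-count filter) and other chaperone genes that passed the filter (grey squares, 1 gene not shown). Hsph1 and Hspb8 among the members and Bag3 and Cct7 among the others lie farthest to the right of those past the filter, and the dotted line is the median of all genes tested.

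Chaperone genes outside the member list were also compared between the diets. Of 67 other heat shock and co-chaperone genes, 25 passed the filter, 2 were higher in FO at an unadjusted p under 0.05, Bag3 and Cct7, and 0 were lower. That is 8% of those tested, against 2.91% of all 2438 genes (71 genes, 1.68% higher and 1.23% lower in FO) by edgeR's quasi-likelihood test, and 0 of these 2438 genes passed Benjamini-Hochberg adjustment. The log2 fold change was positive for 19 of the 25, or 76%, and their median was 0.14, against 50.6% and 0.00 for all genes tested. The excess of calls was not seen in the fit of all genes with any count. There, 2 of 60 chaperone genes were called, against 4.15% of 14161 genes. In that fit 41 of the 60 had a positive log2 fold change, against 54% of all genes. These genes were listed with earlier results of the same counts known, so the comparison is not an independent test.

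Bag3, the co-chaperone that couples HSP70 to Hspb8 in selective autophagy, measured 20.7, 29.8, 71.0, 32.1 and 36.0 CPM in the FO mice and 39.9, 16.0, 13.1, 17.8 and 10.5 CPM in the CO mice. FO3 was highest, as it was for Hspb8 and Hspd1, but with 11 counts, and CO1, with 6 counts, was above 4 of the FO mice. Among the CO mice Bag3 was highest in CO1 and Hspb8 in CO2, and covariation of Bag3 with Hspb8 was not tested. The log2 fold change was 0.99 ± 0.39 (edgeR p = 0.0197, adjusted p = 0.998; exact two-sided permutation p = 0.0635). Cct7, a subunit of the cytosolic chaperonin TRiC that folds actin and tubulin, measured 151, 160, 174, 143 and 203 CPM in the FO mice and 153, 107, 87.6, 127 and 98.4 CPM in the CO mice. CO1 was the sole CO mouse inside the FO range. The log2 fold change was 0.55 ± 0.22 (edgeR p = 0.0249, adjusted p = 0.998; exact two-sided permutation p = 0.0238, where 0.00794 is the smallest possible). The exact test was run only for Bag3 and Cct7, which edgeR had called in the same mice, and is unadjusted. It is therefore no separate evidence. At the unadjusted threshold Bag3 no longer passed without FO3 (log2 fold change 0.77) or CO5 (0.80), nor did Cct7 without FO5 (0.46), CO2 (0.51), CO3 (0.46) or CO5 (0.50). With library size alone as the scaling, the median of all genes was -0.55, and relative to it Bag3 was at 0.93 and Cct7 at 0.50.

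The other partners past the filter did not pass the threshold in edgeR, and each had an adjusted p of 0.998. All 5 TRiC genes tested had a positive log2 fold change, with Cct2 at 0.08 ± 0.29, and so had 5 of 6 HSP90 co-chaperones. Among the latter, Stip1, which joins HSP70 to HSP90, had a log2 fold change of 0.01 ± 0.34 and Ahsa1, an activator of the HSP90 ATPase, 0.15 ± 0.34. Dnaja1, a J-domain partner of Hspa8, had 0.48 ± 0.36, Hspa4, another HSP110, had 0.00 ± 0.21, and Hspa9, the mitochondrial HSP70, had 0.14 ± 0.26. The small heat shock gene Cryab had -0.28 ± 0.34. In the fit of all genes with any count, which had a lower filter, Hsf2 had 0.80 ± 0.59, Chordc1 0.28 ± 0.45, Hspa4l 0.64 ± 0.50, Hspb6 1.55 ± 1.08 and the collagen chaperone Serpinh1 -0.01 ± 0.39, none past the threshold (adjusted p from 0.905 to 0.999). Of the 14161 genes in that fit, 4.15% were called, 2.58% higher and 1.57% lower in FO, and 1 gene (0.00706%) passed adjustment. Hsf1, which codes for the heat shock factor itself, was listed at 0 in every mouse, as were 6 other genes of the list, among them the ubiquitous Ubb and Cct5, so a 0 is only a listing here.

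Mice with more of 1 member did not reliably have more of its partner. Over the 10 mice, after each diet's mean was removed, 5 pairs were compared by Pearson's r of log2 CPM with exact permutation within diets and adjustment over the 5 pairs. Hspa8 and Hsp90aa1 gave r = 0.70 (adjusted p = 0.0922) and Spearman's rho = 0.79 (adjusted exact p = 0.0490). Without CO3 and CO4, the mice farthest from the median of Hspa8, r fell to 0.35. Within FO alone r was 0.40, and within CO it was 0.85. Leaving out extreme mice narrows the range, and rho was not recomputed, so how far the relation rests on CO3 and CO4 cannot be told. Hspa1a and Hspa1b gave r = 0.83 (adjusted exact p = 0.0922) and 0.40 without CO3 and FO2. For Hsp90aa1 and Hsp90ab1, r was 0.23 (adjusted exact permutation p = 0.578), for Hspa8 and Hsph1 0.46 (adjusted exact permutation p = 0.422) and for Hspd1 and Hspe1 0.37 (adjusted exact permutation p = 0.436). The genes whose log2 CPM followed the mean standardised level of the 6 filtered members most closely, out of 2432 genes, were Cmtm6 (r = 0.92), Ssh2 (0.91), Tbl1xr1 (0.89), Hspa5 (0.87) and Picalm (0.85), over all 10 mice. They were picked as the highest, and the mice share depth and scaling, so these r values are descriptions. Hspa5 codes for BiP, the HSP70 of the endoplasmic reticulum.

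Marker lists of other cell types and responses are given beside these values. Their summed shares of the counts outside Rn45s overlapped between the diets for every list described. Smooth muscle markers took 0.0430 to 0.113% in FO and 0.0406 to 0.0651% in CO, and heart muscle markers 0.0230 to 0.0708% and 0.00885 to 0.0519%. FO3, the highest mouse for Hspb8 and Bag3, had the lowest smooth muscle share of the FO mice, 0.0430%, with FO1 next at 0.0455%. FO3 had only 46470 counts outside Rn45s, and its most counted smooth muscle marker, Tagln, had 9, so counting error in that share is large. FO3 also had the highest macrophage share, 0.170%, and of the FO mice the highest immediate early share, 0.334%. FO2, with the highest smooth muscle share, had 102 CPM of Hspb8. Neutrophil markers took 0.0148 to 0.109% in FO and 0.00885 to 0.0198% in CO, and only FO2 of the FO mice lay inside the CO range. Macrophage markers took 0.0775 to 0.170% and 0.0264 to 0.128%, and endothelial markers 0.138 to 0.191% and 0.159 to 0.203%. Immediate early genes, which respond to handling and stress, took 0.171 to 0.334% in FO and 0.108 to 0.350% in CO, and glucocorticoid-responsive genes 0.0624 to 0.121% and 0.0281 to 0.0888%. Among the 14161 genes that had a count in some mouse, edgeR put 2.58% higher in FO at an unadjusted p under 0.05, and this held for 3 of 9 smooth muscle, 4 of 11 heart muscle, 6 of 9 neutrophil and 1 of 7 macrophage markers. It also held for 3 of 11 immediate early and 3 of 8 glucocorticoid-responsive genes, and for 0 of 11 epithelial and 0 of 10 endothelial markers, and 0 genes of these lists were lower. The 1 gene past adjustment in that fit was among the neutrophil markers. The part of these cells or responses in the values of Hspb8, Hsph1 and Hspd1 was not tested.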

How the data were processed

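Lung RNA of 10 mice was sequenced as single-end reads. The authors aligned reads to mm10 with STAR 2.4.0f1, used SAMtools 0.1.19 and counted reads per gene symbol with HTSeq, per the labels and the study's methods. The deposited values are raw counts, without normalization. Libraries were made with TruSeq RNA v2 or riboZero. Which mouse had which kit, and the annotation and strand setting of the counting, are not given in the sources used here, so a kit effect could not be separated and reads of overlapping genes may be shared. Diets were taken from the sample labels. Nothing says that the mice were caged separately.

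All 24059 genes were carried into edgeR 4.0.16 (R 4.3.3) with TMM scaling, the default filter (minimum count 10, minimum total 15; 2438 genes) and the quasi-likelihood test of diet without covariates. The common dispersion was 0.0956. Standard errors come from that fit. Hspa1a, Hspa1b, Hspb1 and Dnajb1 did not pass the filter and were taken from a second fit, of the 14161 genes that had a count in some mouse. Calls use the study's threshold, an unadjusted p under 0.05. Log2 CPM has a prior count of 2. Exact permutation tests were run in Python 3.11.15 with scipy 1.17.1. Exon lengths, positions and 50-base words are from GENCODE M21 on GRCm38, in place of the RefSeq exons first planned, and promoter windows are from RefSeq. Protein features were not analysed here. The tests of edgeR and DESeq2 were checked on simulated counts, with larger changes than the members had with all mice. The sign-flip and within-diet correlation tests were checked on simulated normal values, not on counts.

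The members and all gene lists were chosen with earlier results of these data known. All members are named, with partners chosen by function (1 of them is not reported here), further partners that passed the threshold, and the 5 genes most alike in pattern. Alternative settings included DESeq2 1.42.0, its scaling factors used in edgeR, library size alone, other filters, Rn45s left out, the replicate number as a block, and mice left out. Hspa1b in the members' median was added after seeing the data.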

Additional observations from a re-analysis of the deposited data

Results flagged for a closer look

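In 26 groups of 5 mice tested with Dixon's criterion, 4 had a mouse far from the others, where chance gives 1.3. Hspd1 in FO reached 90.3 CPM in FO3, from 14 counts, and the nearest FO mouse had 57.3 CPM. Hspa1a in CO reached 6.57 CPM in CO3, from 3 counts, and the nearest CO mouse had 1.05 CPM. The share of the nuclear RNA Malat1 among counts outside Rn45s was 8.53% in FO2 against 0.928% in the nearest FO mouse. It was 6.15% in CO5 against 1.05% in the nearest CO mouse. Without FO2 and CO5 the log2 fold change was 0.91 for Hsph1, 0.55 for Hspd1 and -0.045 for Hspa1a.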

How the results depend on the processing

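The log2 fold changes of Hsph1 and Hspb8 were positive under all 19 alternatives, that of Hspd1 under 18. The fit without CO4 is listed more than once among the 19. All refit the counts by which the members were chosen, so a kept sign is not support for a rise. Library size alone, without TMM, shifted the median of all genes to -0.55, and Hspd1 to -0.060; relative to that median Hsph1 was at 1.05, Hspb8 at 0.72 and Hspd1 at 0.49. It also turned Cct7 to -0.052, against the same shift. It called 36 genes (1 higher, 35 lower) where TMM called 71 (41 higher, 30 lower), and 0 of the other chaperone genes where TMM called 2. All genes with any count gave 587 calls, since more genes were tested, and at least 10 counts in every mouse gave 15. Leaving out 1 mouse gave 54 to 154 calls, the most without FO2, and 0 to 2 chaperone calls. The latter were 0 without CO5, and 1 without FO2, FO3, FO5 or CO2. Chaperone calls were also 1 with at least 10 counts in every mouse, and 1 without FO2 and CO5. Without CO3, Dnaja1 passed the threshold with a log2 fold change of 0.89 and Hspa4l with 1.14. DESeq2 called 62 genes, 1 of them after adjustment. With the replicate number as a block, 1 chaperone gene was called and Cct7 missed the threshold with 0.55, but same-numbered mice did not deviate together (mean r = -0.12, from -0.41 to 0.03 over 5 pairs), and 0 mice correlated best with their own number. The cause of the other changes was not tested. The order of levels and the number of covarying pairs by r were the same under all 13 of their alternatives. The 4 members below the filter had at most 19 counts in a mouse. With all mice, edgeR called 0 of 2438 genes after adjustment, and 1 of the 14161 genes with any count. With Hspa1b included, the members' median was 0.25.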
